A study of Mus musculus with 6 samples.

Results

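The genes of the NMDA receptor subunits were followed across lists of transcript events from mouse nucleus accumbens. The 7 members, Grin1, Grin2a, Grin2b, Grin2c, Grin2d, Grin3a and Grin3b, were found by matching the Ensembl gene ID of each listed event to its symbol. Of these, 6 were listed, among 15939 genes in all, and Grin3b was listed in none of the 6 libraries. RNA came from C57BL/6N mice that had been given morphine, an opioid receptor agonist, or saline in conditioned place preference, a task in which an injection is paired with a place. The morphine group (replicates 4, 5 and 6) and the saline group (replicates 1, 2 and 3) had 3 libraries each. The study's description names 6 mice per group and does not tie mice to libraries, so p-values measure the spread between libraries, which may be technical. Age, sex, dose and training schedule are not stated in the labels used here. Both groups share strain and tissue, and no genetic change is named for either.

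NMDA receptors are glutamate-gated ion channels that pass calcium when glutamate is bound and the membrane is depolarised, which makes them sensors of coincident activity in synaptic plasticity. Each receptor holds the obligatory GluN1 subunit, encoded by Grin1, together with GluN2 subunits (Grin2a to Grin2d), which bind glutamate and set channel kinetics, or GluN3 subunits (Grin3a and Grin3b), which bind glycine and lower calcium permeability. Medium spiny neurons of the nucleus accumbens receive glutamatergic input from cortex, hippocampus, amygdala and thalamus through these and other glutamate receptors.

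Each library is a list of alternative transcription and splicing events: first exons, last exons, skipped exons, retained introns and alternative exon ends. The value used was how many distinct events a library listed for a gene, where an event is a type code, a pattern of splice positions and a strand. It is not an expression level, and the same exon can be counted under several type codes. The read depth behind each list is unknown, so an event that is not listed is not shown to be absent. The morphine libraries listed 56416 to 57981 events and the saline libraries 54641 to 58007. All 10 medium spiny neuron markers were listed in every library, with 39 to 41 summed events in morphine libraries and 39 to 42 in saline libraries. Of these 10, Rgs9 had groups that did not overlap, with 5, 6 and 6 events in morphine and 4, 4 and 4 in saline, a pattern shown by 3.07% of all genes tested. The markers of cortical glutamatergic neurons, interneurons, astrocytes, oligodendrocytes and microglia, 5 of each, were also listed in every library. Of 3 endothelial markers 2 were listed, Cldn5 being the exception. The 3 ependymal markers summed to 12 to 15 events in morphine libraries and 16 to 23 in saline libraries, and 1 of them, Ccdc39, did not overlap (8, 9 and 11 in morphine, 12, 19 and 14 in saline). The part of these markers in the values below was not tested.

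The sequences that separate the constant forms of Grin1 and Grin3a are shown because these were the alternative forms listed in every library. They are the sense strand of GENCODE M21 transcripts (GRCm38), with the alternative stretch in capitals and 15 bases of the neighbouring exons in lower case. Of the Grin1 pieces, the N1 exon lies at chr2:25311343-25311405, the C1 exon at chr2:25294438-25294548, the C2 coding end at chr2:25292368-25292484 and the C2′ coding end at chr2:25292060-25292128. The Grin3a insert lies at chr4:49665566-49665625. All are coding sequence on the minus strand.
Grin1 with the N1 exon: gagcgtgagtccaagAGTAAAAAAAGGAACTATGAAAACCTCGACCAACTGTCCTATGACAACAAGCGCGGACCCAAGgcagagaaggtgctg
Grin1 without the N1 exon: gagcgtgagtccaaggcagagaaggtgctg
Grin1 with the C1 exon, here before C2: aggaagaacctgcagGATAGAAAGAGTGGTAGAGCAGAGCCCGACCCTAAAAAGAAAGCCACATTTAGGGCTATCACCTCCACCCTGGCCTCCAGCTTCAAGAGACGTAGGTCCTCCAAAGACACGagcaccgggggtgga
Grin1 without C1, ending in C2: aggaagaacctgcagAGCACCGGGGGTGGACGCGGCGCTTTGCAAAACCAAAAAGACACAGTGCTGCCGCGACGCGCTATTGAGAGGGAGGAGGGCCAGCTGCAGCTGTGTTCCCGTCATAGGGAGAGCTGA
Grin1 without C1, ending in C2′: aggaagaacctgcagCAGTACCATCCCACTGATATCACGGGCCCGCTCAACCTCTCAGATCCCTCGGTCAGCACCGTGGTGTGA
Grin3a with the insert: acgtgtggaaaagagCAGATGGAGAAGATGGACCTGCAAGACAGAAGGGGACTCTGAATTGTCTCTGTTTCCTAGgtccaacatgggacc
Grin3a without the insert: acgtgtggaaaagaggtccaacatgggacc

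The N1 exon has 63 bases (21 codons), the C1 exon 111 bases (37 codons) and the Grin3a insert 60 bases (20 codons). Each keeps the reading frame and holds 0 in-frame stop codons. The C2 end encodes 38 codons and the C2′ end 22 codons before their stop. The pairs of sequences with and without N1, and with and without the Grin3a insert, differ only by the capitals.

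Grin1 (ENSMUSG00000026959, chr2:25291181-25319187, minus strand) encodes GluN1. It had 8, 8 and 8 events in the morphine libraries, against 13, 9 and 8 in the saline libraries. The groups met at 8 events, and the saline libraries above that value were replicates 1 and 2. The means were 8 ± 0 events in morphine and 10 ± 2.65 in saline (SD, n = 3 each), a log2 ratio of -0.28 with an exact permutation p of 0.4. Without saline replicate 3, the saline library with 8 events, the groups did not overlap and the log2 ratio was -0.41. With that library left out, 6.39% of all genes tested had groups that did not overlap. Of the 14 distinct events of Grin1, 8 were listed in all 6 libraries, and these 8 were the entire Grin1 content of every morphine library.

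Those 8 events describe 3 alternative choices and a first exon. The N1 exon encodes a cassette in the extracellular amino-terminal domain known to alter proton sensitivity and deactivation. It was listed with a skipping event in 6 of 6 libraries. The entry counted for a skipping event holds the exon, and its partner entry skips it. The C1 exon, which encodes a cytoplasmic cassette with an endoplasmic reticulum retention signal, had skipping events in 6 of 6 libraries and accounted for 4 events. These 4 arose from 1 exon, because it was recorded against each of the 2 last exons and under 2 type codes. The last exon began at 25292484 for C2 and at 25292128 for C2′, which ends in a PDZ-binding motif, and both were listed in 6 of 6 libraries. The 2 sites are 356 bases apart. GENCODE M21 holds 8 protein-coding Grin1 transcripts, which cover all 8 combinations of the 3 choices, 4 with and 4 without each. The event lists do not record which choices occurred together in a molecule. How far the annotation guided the lists is not stated, and its part in these constant forms was not tested.

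The Grin1 first exon, with its splice site at 25318629, was also listed in 6 of 6 libraries. Its outer end was at 25319187 in morphine replicates 4 and 6 and in saline replicates 1 and 3. It was at 25319120 in morphine replicate 5 and at 25319095 in saline replicate 2. All 3 positions are ends of annotated transcripts.

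The other 6 Grin1 events were each in a saline library alone and were described after their values were seen. Saline replicate 1 listed the intron between the C1 exon and the exon before it as retained (chr2:25294548-25295792). Its coordinates include the edge bases of both exons, as for every retained intron here. Under alternative exon ends that library also listed the unspliced stretch of 1500 bases and the annotated 146-base exon beside the intron. Each was listed under more than 1 type code, which gave 4 events. Thus 5 of its 13 events concerned the splicing of 1 intron. Saline replicate 2 listed a last exon running unspliced from 25295937 to 25291181, which is 4757 bases. It spans that intron, the C1 exon and both last exons. Neither the retained intron nor the long last exon was listed in a second library, but both leave the same intron unspliced.

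**Figure D1:**
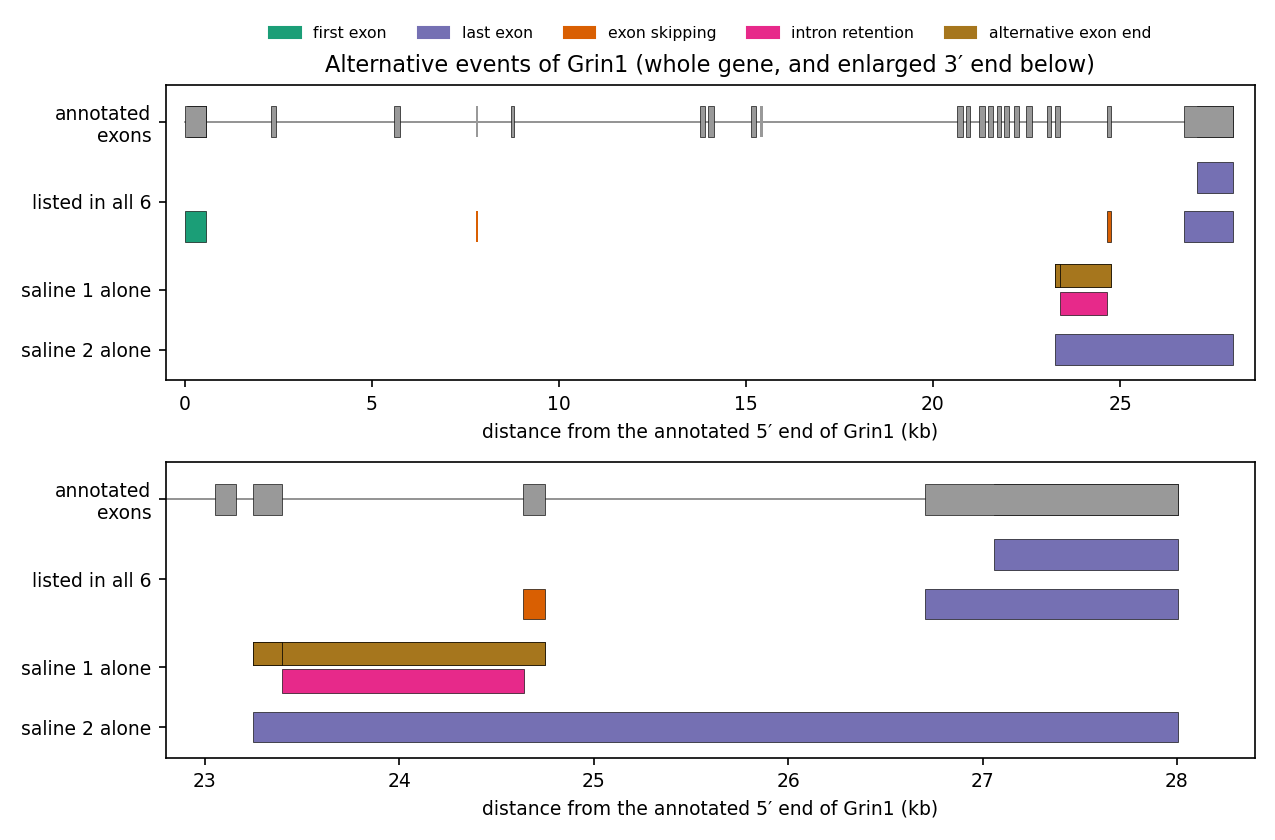
Events listed under Grin1 by distance from the annotated 5′ end in kb, for the whole gene (upper panel) and its 3′ end (lower panel). Grey boxes are annotated exons, coloured boxes are events, and the rows separate events listed in all 6 libraries from those of saline replicate 1 and of saline replicate 2, with 6 events in saline libraries alone and 0 in morphine libraries alone.

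Grin2a (ENSMUSG00000059003, chr16:9567898-9995560, minus strand) encodes GluN2A, the subunit that gives fast deactivation and becomes prominent in maturing forebrain synapses. It had 3, 2 and 2 events in morphine libraries and 2, 2 and 3 in saline libraries. The same set of values was thus seen in both groups, with a log2 ratio of 0 and an exact permutation p of 1 (n = 3 each). All 7 distinct events were first or last exons, and 0 of the 7 were in all 6 libraries. The usual first exon, with its splice site at 9994823, was listed in every library but morphine replicate 4, which listed 9994059. The usual last exon, at 9579626, was listed in morphine replicates 5 and 6 and in saline replicates 1 and 2. Morphine replicate 4 listed last exons at 9612757 and 9761983 in its place, and saline replicate 3 listed 9657799. These 3 sites belong to internal exons of the annotation. From them the listed last exons ran unspliced to 9599742, 9758405 and 9654354, in the same order, which lie in annotated introns. Their lengths were 13016, 3579 and 3446 bases. What produced these ends was not tested.

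Grin2b (ENSMUSG00000030209, chr6:135713233-136173511, minus strand) encodes GluN2B, which gives slower deactivation and predominates early in forebrain development. It had 5, 4 and 2 events in morphine libraries and 2, 4 and 2 in saline libraries, values that overlapped. The means were 3.67 ± 1.53 and 2.67 ± 1.15 events (morphine and saline, SD, n = 3 each), a log2 ratio of 0.38 with an exact permutation p of 0.7. Its first exon at 136173473 and its last exon at 135733948 were listed in 6 of 6 libraries. The outer 3′ end was 135713232 in morphine replicates 4 and 6 and saline replicates 1 and 3, and 135729826 in morphine replicate 5 and saline replicate 2. All other Grin2b events concerned the 5′ untranslated region or came from morphine replicate 4. An untranslated exon with 2 alternative ends, of 73 and 239 bases, was listed in morphine replicate 5 and in saline replicate 2. In morphine replicate 4 the 73-base form (chr6:136172865-136172937) was listed with a skipping event. That library also listed a coding-region exon with an edge at 135843202 and 2 lengths, 115 bases as annotated and 527 bases not annotated.

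Grin2c (ENSMUSG00000020734, chr11:115249169-115267243, minus strand) encodes GluN2C, best known from the cerebellum, thalamus and glia. It had 8, 2 and 5 events in morphine libraries and 3, 2 and 8 in saline libraries, so both groups ran between 2 and 8. The means were 5 ± 3 events in morphine and 4.33 ± 3.21 in saline (SD, n = 3 each; log2 ratio 0.22, exact permutation p of 1). The log2 ratio was -0.18 without morphine replicate 4 and -0.16 without saline replicate 2. The last exon, at 115250707, was the only Grin2c event in all 6 libraries. The first exon, at 115266990, was in 5 libraries, and morphine replicate 4 instead listed a first exon of 6529 bases that reached 115260734 without a splice. Coding sequence of Grin2c begins at 115261132, in the same exon that this long form ran into. The stretch between that exon and the exons before it was listed as retained (chr11:115261147-115266420) in morphine replicates 4 and 6 and in saline replicate 1. The exon with an edge at 115260734 had alternative ends in morphine replicates 4 and 6 and in saline replicate 3. Further 3′, morphine replicate 4 alone listed a retained intron (chr11:115255426-115255686) and an exon with an edge at 115257451 and 2 lengths, 115 bases as annotated and 126 bases not annotated. Saline replicate 3 alone listed another retained intron (chr11:115255851-115256043) and an exon with an edge at 115255686 and 2 lengths, 166 bases as annotated and 102 bases not annotated. In all, 9 of the 14 events were in a single library.

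Grin2d (ENSMUSG00000002771, chr7:45831883-45878378, minus strand) encodes GluN2D, the subunit with the slowest deactivation. It had 9, 3 and 3 events in morphine libraries and 7, 2 and 4 in saline libraries, and the ranges overlapped. The means were 5 ± 3.46 events in morphine and 4.33 ± 2.52 in saline (SD, n = 3 each; log2 ratio 0.15, exact permutation p of 0.9). Its direction rested on morphine replicate 4, without which the log2 ratio was -0.33. It was also below 0 without saline replicate 2, at -0.25. None of its 18 events was in all 6 libraries, and 13 were in a single library.

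The starts of Grin2d were the most varied of the family, with 5 first-exon splice sites between 45869711 and 45871092, all upstream of the coding start at 45866567. The site at 45869711 was listed in morphine replicate 6 and in saline replicates 2 and 3. The site at 45870782 was listed in morphine replicates 4 and 5 and in saline replicate 1. No library listed both as first-exon sites. In morphine replicate 4 and saline replicate 1, whose first exons included 45870782, exons bounded at 45869711 were listed under alternative exon ends, 2 in each library. Kdelr1, on the other strand, begins at 45872772, past the outermost listed Grin2d start at 45872638. The other 3 sites, not annotated, were in morphine replicate 4 or saline replicate 1 alone. Of 3 retained introns, 1 (chr7:45834481-45834639) was in morphine replicate 6 and saline replicate 3. Another (chr7:45856893-45857478) was in morphine replicate 5 and saline replicate 1, and the third (chr7:45858084-45858450) in saline replicate 1 alone.

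The last exon of Grin2d, at 45834087, was listed in 5 libraries. In the remaining library, morphine replicate 5, the last exon listed under Grin2d lay at chr7:45825242-45826093, past the annotated end of the gene. Its splice site is that of the last exon of Grwd1, the next gene on the same strand. Grwd1 itself had 3, 0 and 2 events in morphine libraries and 3, 2 and 3 in saline libraries, so it was not listed in morphine replicate 5, the library with this joined form. In morphine replicate 4 alone, a coding exon of 126 bases (42 codons, chr7:45854574-45854699) was listed with a skipping event, and 0 annotated transcripts skip it.

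**Figure D2:**
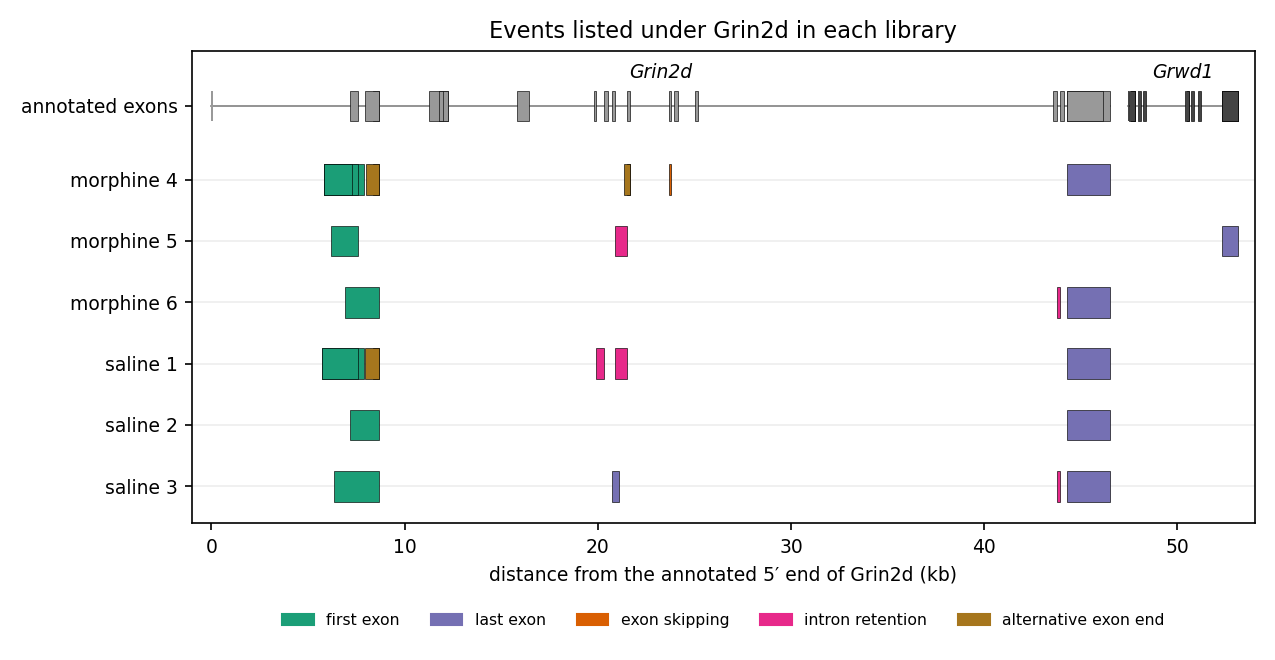
Events listed under Grin2d in each library by distance from the annotated 5′ end in kb, with the exons of Grin2d and of the neighbour Grwd1 in the top row. The last exon of morphine replicate 5 lies in Grwd1, and first exons fall at 5 splice sites.

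Grin3a (ENSMUSG00000039579, chr4:49661611-49845744, minus strand) encodes GluN3A, whose levels peak in early postnatal life and which restrains synapse maturation. It had 3, 3 and 5 events in morphine libraries and 3, 3 and 3 in saline libraries. Only morphine replicate 6 stood above the others. The means were 3.67 ± 1.15 events in morphine and 3 ± 0 in saline (SD, n = 3 each; log2 ratio 0.22, exact permutation p of 1). The same 3 events made up the entire Grin3a content of the other 5 libraries: a first exon at 49844383 and last exons at 49665625 and 49665565. The last-exon sites are 60 bases apart and set whether the insert printed above is included. A longer GluN3A with an insert in the intracellular carboxyl-terminal tail is known from rat. Morphine replicate 6 alone also listed a skipping event for a coding exon of 605 bases (chr4:49792428-49793032), which is not a multiple of 3, and a last exon at 49702870.

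Grin3b (ENSMUSG00000035745, chr10:79970715-79977190, plus strand) encodes GluN3B, best known from motor neurons. It had 0 events in each of the 6 libraries, with 3 annotated protein-coding transcripts. Tmem259, on the other strand, overlaps its 3′ end. Low expression and a loss during assembly cannot be told apart here.

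**Figure D3:**
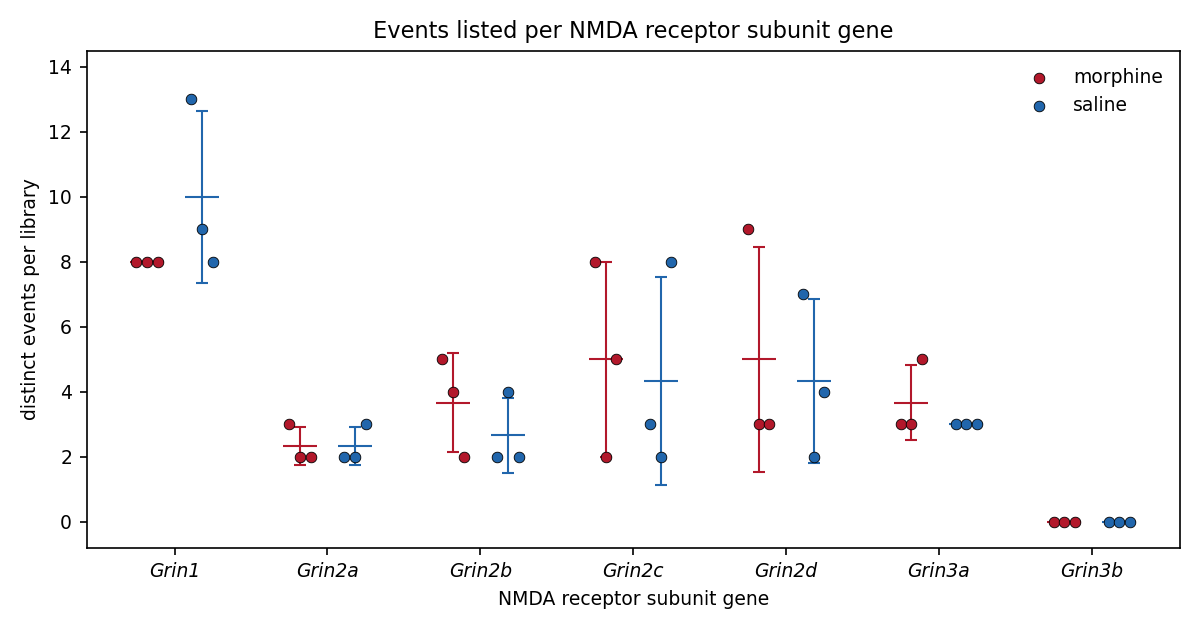
Distinct events per library (vertical axis) for the 7 genes, with morphine libraries in red to the left of saline libraries in blue. Points are libraries, horizontal lines means and bars SD (n = 3 each). Every gene's groups overlap or meet, with Grin1 between 8 and 13 events and Grin3b at 0.

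Across the family, the groups overlapped in all 6 listed genes, so 0 of 6 were called, where 3.07% of the 15040 genes tested had groups that did not overlap. Benjamini-Hochberg adjusted exact permutation p-values over those genes were 1 for each of the 6 (n = 3 each), and 3 against 3 libraries cannot give an unadjusted p below 0.1. In the limma model fitted across all genes, adjusted p-values of the 6 lay between 0.905 and 1, and 0 of 6 had an unadjusted p under 0.05. Over all 15040 genes tested, 480 had an unadjusted limma p under 0.05. The median log2 ratio of the 6 genes was 0.19, beside a median of 0 over all genes tested. These medians are not directly comparable, since 3423 genes in all, but 0 of the 6, had identical values in every library. The log2 ratios of Grin2c and Grin2d also fell below 0 without morphine replicate 4 or without saline replicate 2. A ratio that misses the threshold at this number of libraries does not show that the groups were alike.

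**Figure D4:**
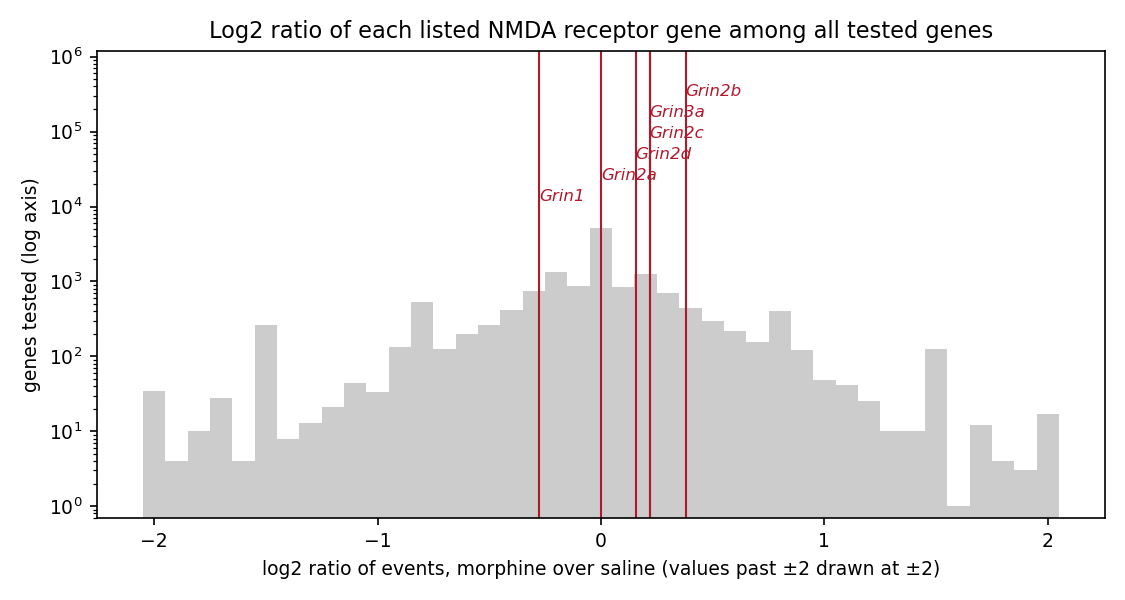
Log2 ratio of distinct events, morphine over saline, for all 15040 genes tested (grey bars, log vertical axis), with the 6 listed NMDA receptor genes as red lines. They run between -0.28 for Grin1 and 0.38 for Grin2b, within the bulk of the genes.

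The summed events of the family were 36, 22 and 25 in morphine libraries and 30, 22 and 28 in saline libraries. Morphine replicate 4 and saline replicate 1 were the highest of their groups, and the groups overlapped. The means were 27.7 ± 7.37 in morphine and 26.7 ± 4.16 in saline (SD, n = 3 each), a ratio of 1.04. Without morphine replicate 4 the log2 ratio of the sums was -0.18, against 0.05 with it, and without saline replicate 2 it was -0.07. Averaged over all 6 libraries, Grin1 had 9 ± 2 events, Grin2c 4.67 ± 2.80, Grin2d 4.67 ± 2.73, Grin3a 3.33 ± 0.816, Grin2b 3.17 ± 1.33 and Grin2a 2.33 ± 0.516 (SD, n = 6). Grin1 was the highest or tied for it in every library except morphine replicate 4, where Grin2d had 9 events and Grin1 8. Neighbours in this order below Grin1 did not differ beyond their spread. The order describes listed events and not RNA levels.

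By class, the family had 8, 6 and 6 first exons in morphine libraries and 7, 6 and 7 in saline libraries. Last exons numbered 9, 8 and 9 in morphine and 8, 9 and 9 in saline. Skipping events numbered 7, 5 and 6 in morphine and 5, 5 and 5 in saline, the constant 5 being those of Grin1. Retained introns numbered 2, 1 and 2 in morphine and 4, 0 and 2 in saline. Alternative exon ends varied most, with 10, 2 and 2 in morphine and 6, 2 and 5 in saline. First and last exons were thus even across libraries, and the libraries with high sums were high in alternative exon ends.

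Of 65 distinct events of the family, 14 (21.5%) were in all 6 libraries and 38 (58.5%) in a single library, where all genes together had 20.9% and 50.7%. The 14 constant events were all annotated, as were 52.6% of the 38, beside 97.4% and 49.5% over all genes. Events were marked as annotated by their exon boundaries, and not by whether a transcript has the same form. The skipping events of a Grin2d and a Grin3a exon were marked so, though 0 annotated transcripts skip those exons. The constant events came from Grin1 (8), Grin3a (3), Grin2b (2) and Grin2c (1). Alternative exon ends made up 33.8% of the family's events and 13.3% of all events, and 18 of the 22 were in a single library. Each listed length of such an exon was counted as its own event, annotated lengths included. This raises their number, and with it the number of single-library events. For the 4 AMPA receptor subunit genes, 12.2% of 74 events were in each of the 6 libraries and 45.9% in a single library. The 7 kainate and delta receptor genes had 16% and 58.7% of 75 events. Of the family's events 0 were in every library of a group and in no library of the other, a pattern shown by 0.665% of the 128790 events of all genes.

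The single-library events were uneven. Morphine replicates 4, 5 and 6 held 18, 1 and 2 of the 38, and saline replicates 1, 2 and 3 held 9, 1 and 7. Over all genes the same libraries held 11744, 11212 and 10597 (morphine) and 11830, 9277 and 10639 (saline). A set of 38 events varies relatively more between libraries than a set of 65299, so these spreads are not comparable. The annotated share of the family's events was 75%, 95.5% and 88% in morphine libraries and 73.3%, 100% and 78.6% in saline libraries. Over all genes it was 78.8%, 80.6% and 80.1% in morphine libraries and 79.2%, 82.5% and 82% in saline libraries. Morphine replicate 4 and saline replicate 1, which had the most family events, thus had the lowest shares in the family and over all genes. A lower share in these libraries was therefore not particular to the family. Pairs of libraries shared on average 43.4% of the family's events within morphine, 50.2% within saline and 52.2% between the groups. Over all genes these means were 47.1%, 48.3% and 47.5%. Morphine replicate 4 shared 34.9% and 38.6% of family events with the other morphine libraries, which shared 56.7% with each other. With the saline libraries it shared 33.3% to 34.9%. The family means thus rested largely on that library, and a difference between kinds of pairs was not tested.

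**Figure D5:**
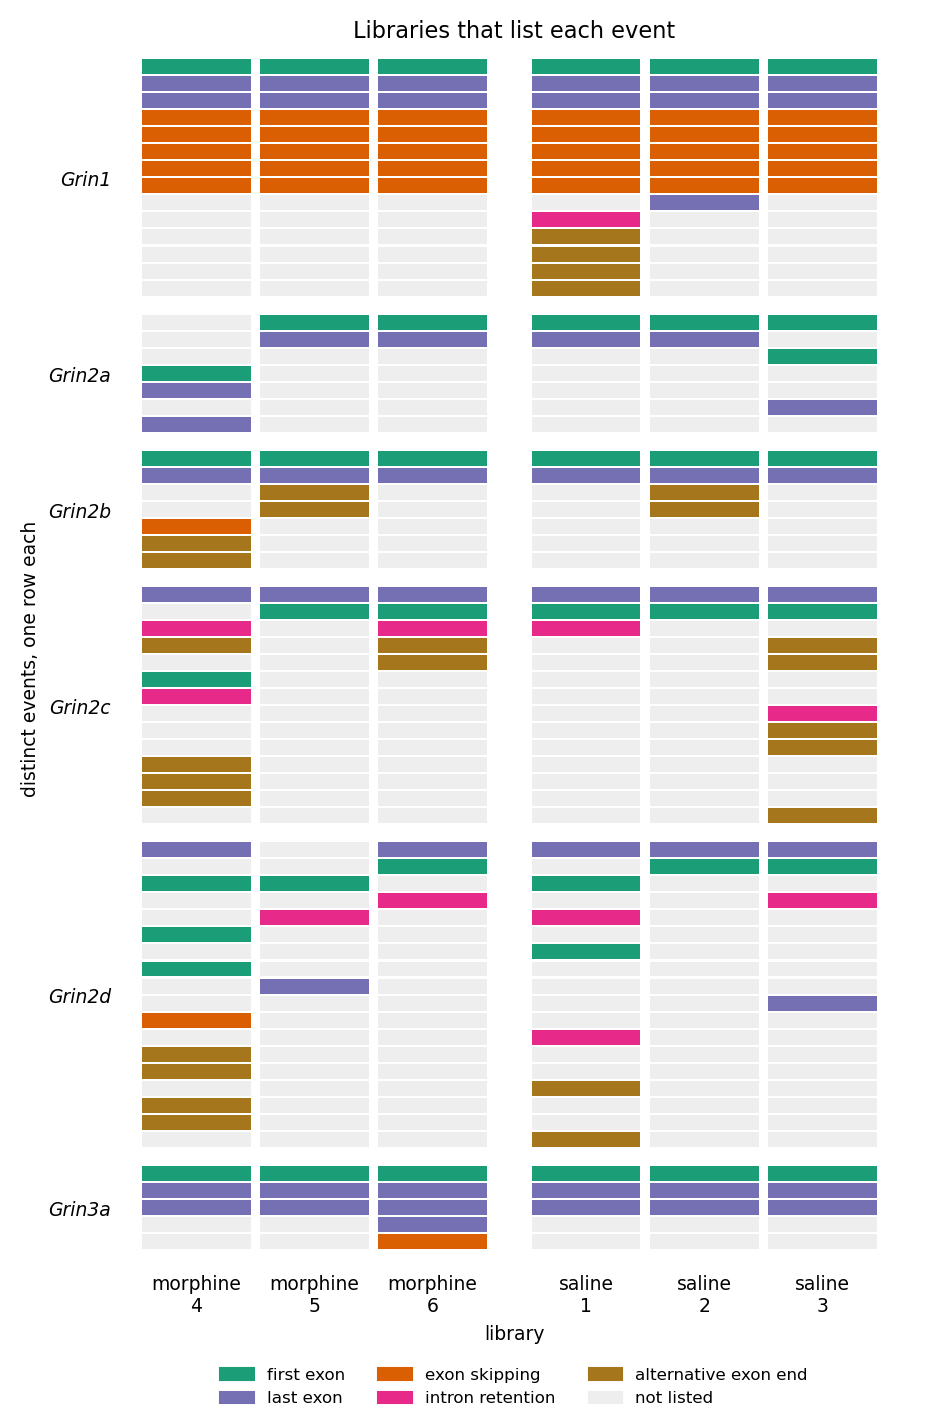
The 65 distinct events of the 6 listed genes, 1 row each, with a coloured cell where a library lists the event and a grey cell where it does not. Rows filled across all 6 libraries number 14, and 38 rows have 1 filled cell, 18 of them in morphine replicate 4.

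The listed outer ends of the family were compared with annotated transcript ends, at the same base and within 10 bases, a tolerance chosen after seeing the data. First exons began at the same base in 6 of 6 listings for Grin1, for Grin2b and for Grin3a. They did so in 0 of 7 for Grin2a, 0 of 6 for Grin2c and 0 of 9 for Grin2d, but within 10 bases in 4 of 7, 3 of 6 and 0 of 9 in the same order. Last exons ended at the same base in 13 of 13 listings for Grin1 and 12 of 13 for Grin3a, and the tolerance changed neither count. For Grin2b the same base was met in 2 of 6 listings and the tolerance in 6 of 6, and for Grin2c in 1 of 6 and 6 of 6. For Grin2d these were 3 of 7 and 5 of 7, and for Grin2a 0 of 7 under both. No start of Grin2d and no end of Grin2a was thus within 10 bases of an annotated end. Over all genes 61.2% of first exons and 61.4% of last exons met the same base, and 67.5% and 71.7% came within 10 bases.

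Genes that act with the receptor were examined as lists. Among 28 postsynaptic partners (scaffolds, kinases and calcium sensors), 2 had more events in every morphine library than in any saline library, and 0 had fewer, with a median log2 ratio of 0. Dlgap4, a scaffold that binds PSD-95, had 10, 11 and 10 events in morphine and 8, 9 and 9 in saline (log2 ratio 0.24). Shank2, a scaffold deeper in the postsynaptic density, had 15, 12 and 14 events in morphine and 6, 10 and 8 in saline (log2 ratio 0.76). Both had an exact permutation p of 0.1 (n = 3 each) and an adjusted p of 1. The share called, 2 of 28, stands beside 3.07% of all genes tested in either direction and 1.64% with morphine above saline. For supply or removal of glutamate and co-agonists, 0 of 16 tested genes (of 18) were called in either direction, with sums of 44, 48 and 64 events in morphine and 49, 53 and 51 in saline. For trafficking and modification of the receptor 0 of 15 were called, with sums of 77, 94 and 67 in morphine and 71, 66 and 76 in saline.

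Other ionotropic glutamate receptor genes gave the following. None of the 4 AMPA receptor subunit genes was called, with sums of 25, 23 and 34 events in morphine and 31, 33 and 38 in saline. Of 7 kainate and delta receptor genes 1 was called, Grik1, with 7, 7 and 5 events in morphine and 23, 13 and 11 in saline (log2 ratio -1.19, exact permutation p of 0.1, adjusted p of 1, n = 3 each). Over all genes tested 3.07% were called in either direction and 1.43% with morphine below saline. The 3 genes whose log2 event numbers most resembled the family mean over the 6 libraries were Tnrc6c, 9430015G10Rik and Nrd1, each with a Pearson correlation of 0.98, out of 2278 candidates. The correlation runs over the same libraries and is a description only. All 3 shared the family's high value in morphine replicate 4, and Tnrc6c had 59, 12 and 14 events in morphine and 20, 11 and 27 in saline.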

How the data were processed

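RNA from nucleus accumbens was sequenced in 6 libraries, 3 per group. Per the file headers, the authors deposited for each library a list of events with type code, gene ID, positions, pattern and strand. The assembler, event caller, build and depth are not stated in the sources used here. Boundaries of 65.3% of 128790 distinct events are exon boundaries of GENCODE M21 (GRCm38), and coordinates are read on that build. The deposited column headed fpkm holds whole numbers between -24 and 0, treated as a score with no known scale and used in no comparison.

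Distinct events by type, pattern and strand were counted per gene and library, without codes ending in OFF, which repeat a partner transcript. Alternative exon ends were counted under each listed length, so both forms of such an exon were kept. Symbols matched 15833 of 15939 gene IDs. For genes averaging 0.5 events or more, log2(events + 0.5) was compared by an exact two-sided permutation test over all 20 splits, with Benjamini-Hochberg adjustment over 15040 genes. Genes were called where the groups did not overlap. On simulated Poisson counts, 89.5% of genes changed 4-fold were recovered. Only genes averaging at least 5 events were changed in that simulation. Among the members only Grin1, with a mean of 9, averaged as many. Recovery at the lower event numbers of the other members was not simulated, so that share cannot be read as theirs. Spread between libraries beyond Poisson noise was not simulated either. Limma 3.58.1 in R 4.3.3 (eBayes with trend), other event definitions, scalings and pseudocounts, and leaving out each library were alternatives. Tables were made with Python 3.11.15, pandas 2.3.3 and numpy 2.4.6.

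Named were all 7 members, list genes whose groups did not overlap, the 3 genes most like the family (mean of at least 5 events, at least 4 different values), skipping events in at least 3 libraries and constant first and last exons. Other single events, and Grwd1, were chosen after their values were seen. The members and lists were chosen with earlier results of these data known.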

Additional observations from a re-analysis of the deposited data

How the results depend on the processing

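No paired analysis was possible because the groups share no replicate numbers. The number of members whose groups did not overlap was 0 under every alternative except leaving out a library, where it ranged from 0 to 1 (Grin1, without saline replicate 3, log2 ratio -0.41). The number of all genes whose groups did not overlap was 462, and it was 256 with first and last exons only, 303 without them and 818 after scaling to equal totals. Leaving out a library gave 961 to 1102, since 2 against 3 libraries overlap less often. By a different measure, 96 of 15040 genes had an adjusted limma p under 0.05. The log2 ratio of Grin2d was -0.04 with first and last exons only and with annotated events only, -0.33 without morphine replicate 4 and -0.25 without saline replicate 2. That of Grin2c was -0.18 without morphine replicate 4 and -0.16 without saline replicate 2. The cause was not tested. The log2 ratio of the family sum ranged from -0.18 to 0.19. Grin1 stayed between -0.41 and -0.08 and Grin2b between 0 and 0.94. Depth is unknown, and small whole numbers of events limit what 3 libraries per group can show.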

Other observations

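The deposited column headed fpkm, whose scale is not known, held for Grin1 the value -4 at the N1 exon in 6 of 6 libraries. The partner entry that skips N1 had -4 in all libraries except saline replicate 2, which had -5. The C1 exon and its skipping partner had -2 at each entry in 6 of 6 libraries. The first exon had -8, except -9 in saline replicate 2, and the C2′ last exon -4, except -5 in saline replicate 1. GENCODE M21 holds 8 protein-coding transcripts of Grin1, of which 4 include and 4 skip N1.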
